A study of Mus musculus with 25 samples.

Results

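H19, Igf2, Meg3 and Rasgrf1 belong to the few mouse imprinted regions whose control element carries DNA methylation on the paternal chromosome. CpGs of these loci were read from reduced representation bisulfite sequencing (RRBS), which sequences CpG-rich restriction fragments after a treatment in which bisulfite turns unmethylated cytosine into a base read as thymine. The members are all CpGs with at least 5 reads in any library inside 3 mm9 windows: 100 kb from chr7:149760001 for H19 and Igf2, 65 kb from chr12:110755001 for Meg3 (also called Gtl2) and its upstream region, and 20 kb from chr9:89765001 upstream of Rasgrf1. Of 424 CpGs listed there, 264 were members, 204 at H19 and Igf2, 51 at Meg3 and 9 at Rasgrf1, out of 1587545 such CpGs in the whole series. Of the members, 82 had 5 reads in all 25 libraries: 73 at H19 and Igf2, 7 at Meg3 and 2 at Rasgrf1.

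The 25 libraries were made from haematopoietic stem cells (HSCs), the cells that renew themselves and form all blood lineages, of C57Bl/6 mice, an inbred strain. Fetal HSCs came from fetal liver at e14.5 (n = 2), and the others came from marrow. Their donors were young (3.5 months, n = 2), old (25 months, n = 2), or 3.5 months old at the start of 6 further months with 0, 2 or 4 doses of 5-fluorouracil (5-FU; n = 3, 3 and 2). 5-FU kills dividing cells and so draws surviving stem cells into division. The transplanted groups held HSCs that reconstituted recipients from 10, 50 or 500 young cells (n = 3, 1 and 1) or from 10, 50 or 500 old cells (n = 2, 1 and 3). The recipients' age and the time after transplantation are not stated in the labels. A transplanted group can descend from few stem cells, so its level can be that of few clones. The files hold no expression, so the labelled cell type could not be checked against markers. Library depth was 22835325 to 105187091 reads over CpGs, of which 3060 to 12920 fell at H19 and Igf2, 288 to 1401 at Meg3 and 66 to 589 at Rasgrf1.

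Imprinted genes are expressed from the chromosome of only one parent, and the mark that tells the chromosomes apart is DNA methylation laid down in the germ line. At H19 and Igf2, paternal methylation keeps the insulator protein CTCF from the control region, which leaves Igf2, a fetal growth factor, active on the paternal chromosome and H19, a long non-coding RNA, on the maternal one. At Dlk1 and Meg3, the paternally methylated intergenic region upstream of Meg3 silences that long non-coding RNA on the paternal chromosome. Rasgrf1, which encodes an exchange factor for Ras, lies downstream of a paternally methylated region with a repeat. Both H19 and Meg3 are known for roles in keeping mouse HSCs quiescent or self-renewing. A CpG methylated on one chromosome of every cell reads at an intermediate level, and RRBS without allele information cannot tell that from full methylation in a share of the cells.

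The promoters next to the densest covered CpGs are shown because their CpG spacing ties the measured positions to a gene start. RefSeq promoter windows (GRCm38.p6) hold 250 bases before and 50 bases after a start, and 3 of the 4 member genes had an entry: Igf2, Meg3 and Rasgrf1. The capitals mark each CpG, and the sequences run 5′ to 3′ on the gene's strand. The Igf2 window is the second of 4 by position, chr7:142658755-142659054 on the minus strand, and the Meg3 window is the first of 2, chr12:109540746-109541045 on the plus strand.
Igf2 promoter: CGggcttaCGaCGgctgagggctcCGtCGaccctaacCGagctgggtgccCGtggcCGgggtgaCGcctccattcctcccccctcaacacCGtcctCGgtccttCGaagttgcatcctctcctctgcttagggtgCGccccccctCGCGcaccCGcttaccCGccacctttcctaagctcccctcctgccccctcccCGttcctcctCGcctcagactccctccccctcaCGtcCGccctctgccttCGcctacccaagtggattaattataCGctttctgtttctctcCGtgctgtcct
Meg3 promoter: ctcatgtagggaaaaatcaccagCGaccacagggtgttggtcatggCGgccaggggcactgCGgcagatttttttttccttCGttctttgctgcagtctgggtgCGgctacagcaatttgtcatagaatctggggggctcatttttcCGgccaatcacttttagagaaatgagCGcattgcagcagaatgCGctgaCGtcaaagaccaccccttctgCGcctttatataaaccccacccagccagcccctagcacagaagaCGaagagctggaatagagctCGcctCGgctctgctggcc
The Igf2 window holds 24 CpGs and the Meg3 window 13, against a median of 7 over 32851 RefSeq promoters. On mm9 the windows were placed by CpG spacing alone. At chr7:149844660-149844959 all 8 listed CpGs of the files fell on a CpG of the Igf2 sequence, where the next best full match had 3, and at chr12:110778956-110779255 all 9 fell on a CpG of the Meg3 sequence, with no other full match. This puts the Igf2 start at 149844709 and the Meg3 start at 110779206. The other Igf2 and Meg3 promoters and that of Rasgrf1 could not be placed in the windows in this way. The letters TGACGTCA, the cyclic AMP response element, lie 57 bases before the Meg3 start and in 1.79% of all promoters on either strand. The TATAAA motif, bound by the basal transcription machinery, lies 25 bases before it and in 13.6% of promoters. It overlaps a match on the other strand, and not the first motif. H19 precedes Igf2 by position in RefSeq, so the low end of the chromosome 7 window, on the far side of Igf2's body, is called its H19 end. H19 itself could not be placed on mm9.

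CpGs beside the Igf2 start had little methylation, and most CpGs elsewhere in the chromosome 7 window and in the Meg3 window were intermediate or methylated. Among CpGs read in at least 13 libraries, 109 of 152 at H19 and Igf2 had a median level under 20%, 24 lay between 20% and 80% and 19 above 80%. Of those 152, 107 lay in a dense block from 149844223 to 149850292, a range set after the values were seen, where 106 were under 20%; outside it, 3 of 45 were. At Meg3 the counts were 5, 15 and 19 of 39, and at Rasgrf1 6, 1 and 0 of 7. Over all 1284027 autosomal CpGs with that coverage, 45.6% were under 20%, 13.6% between 20% and 80% and 40.7% above 80%.

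**Figure D1:**
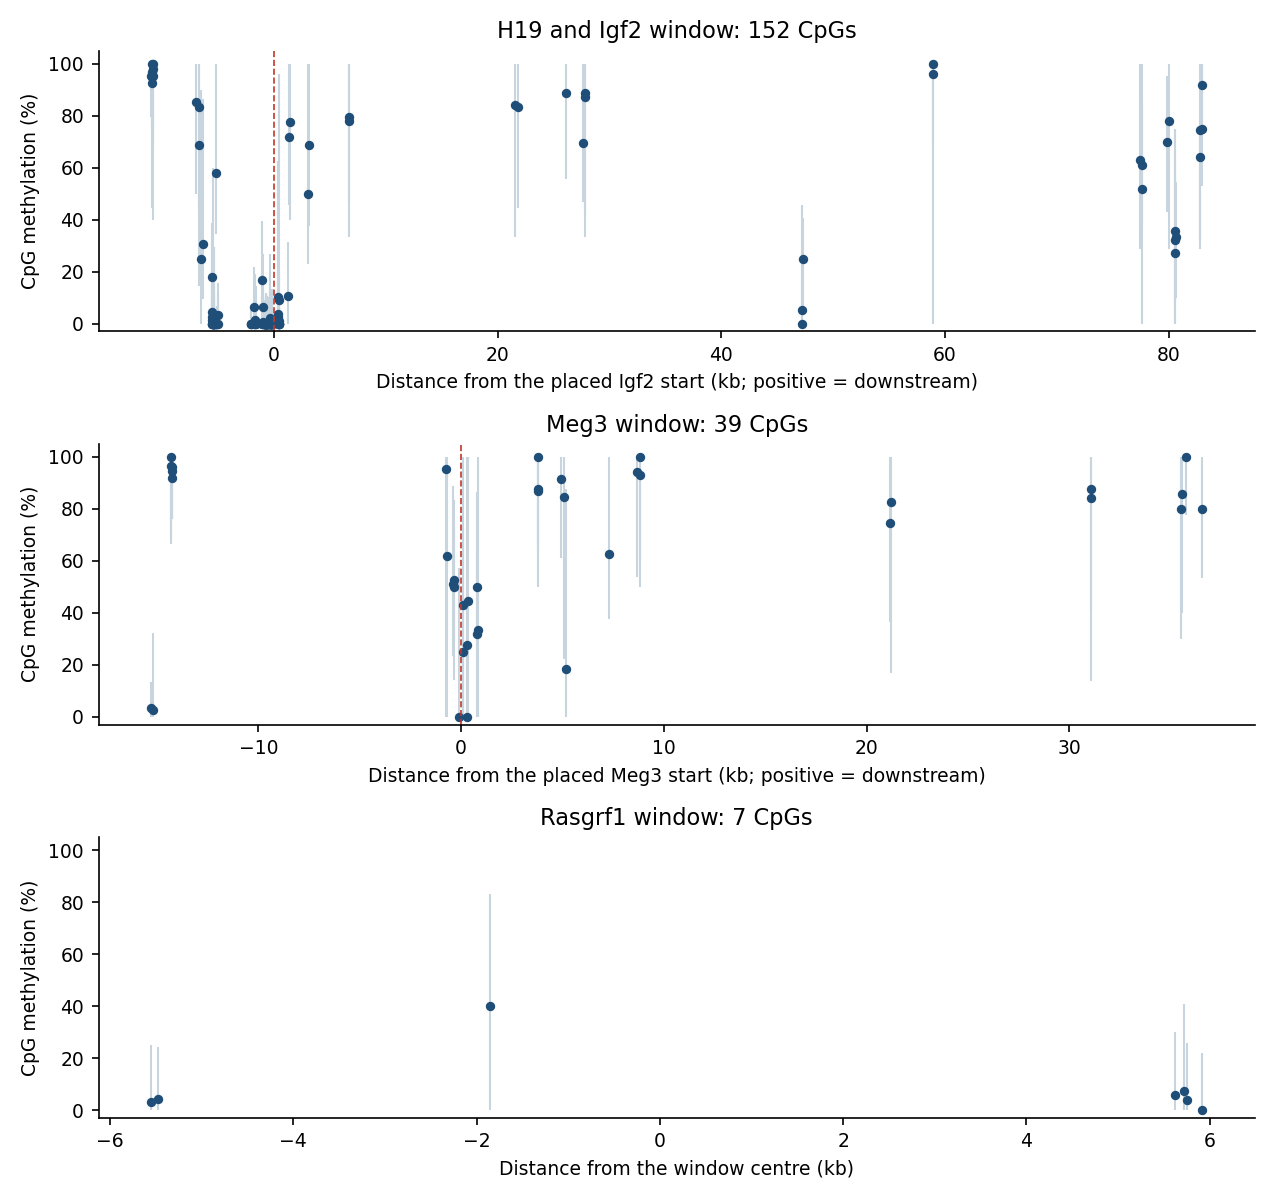
Methylation (%) of each member CpG read in 13 or more libraries (152, 39 and 7 CpGs) against its distance in kb from the placed Igf2 start, the placed Meg3 start or the centre of the Rasgrf1 window. Points are medians over libraries, pale lines run from the lowest to the highest library, and dashed lines mark the starts. CpGs beside the Igf2 start are low, and the H19 end on the right is intermediate to high. Most CpGs around the Meg3 start are intermediate, with mostly methylated CpGs farther off on both sides.

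On average, CpGs read beside the Igf2 start were close to unmethylated in every library. Single CpGs could read higher. That at 149845815, 1106 bases upstream, differed by 20.5 points between young and fetal HSCs, without passing the test of single CpGs described below. The files list none of the 16 CpGs from 185 bases upstream to 40 bases downstream, so the start itself was not measured. Clusters were defined as runs of at least 3 CpGs with 5 reads in all 25 libraries and gaps of at most 300 bp. The largest had 37 CpGs, 193 to 1113 bases upstream of the start, and its mean level was between 0% and 3.00% with a median of 1.10% (698 to 3865 reads per library). A cluster of 9 CpGs 364 to 432 bases downstream of the start had a median of 2.82% and a range of 0.612% to 9.28%. The other 8 CpGs of the Igf2 sequence above had 5 reads in all 25 libraries. Farther upstream, 5 CpGs from 149846412 had a median of 2.46% and 6 CpGs from 149850108 a median of 1.81%. Intermediate and high CpGs followed from 149851087, and at 149855623 a cluster of 3 CpGs read 84.1% to 100% with a median of 95.6%.

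At the H19 end, a cluster of 4 CpGs at chr7:149764070-149764148, 80.6 kb from the Igf2 start, was partly methylated in all libraries, with a median of 30.01%. Fetal HSCs read 43.5% and 33.6% (mean 38.6% ± 7.03, SD, n = 2), young HSCs 14.1% and 26.1% (20.1% ± 8.47) and old HSCs 36.1% and 32.8% (34.4% ± 2.34). Every young library thus lay below every fetal and every old library. The 0-dose libraries read 29.6%, 60.1% and 39.2% (42.9% ± 15.6, n = 3), the 2-dose libraries 30.01%, 35.7% and 35.4% (33.7% ± 3.21) and the 4-dose libraries 23.4% and 20.9% (22.2% ± 1.79). The 0-dose group held the highest library of all, on 49 reads, and its range covered that of the 2-dose group. After transplantation of 10 young cells the level was 34.1%, 33.6% and 16.6% (28.1% ± 9.95), and of 10 old cells 24.6% and 29.2% (26.9% ± 3.25). The 500-cell libraries of old donors read 22.8%, 40.3% and 22.6% (28.6% ± 10.1). These groups overlapped one another and the young libraries.

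The single-library groups added 25.7% for 50 young cells, 16.8% for 500 young cells and 38.6% for 50 old cells at the same cluster. By pooled reads with exact 95% binomial intervals, which cover counting error only, these were 21.5% (16.0% to 27.7%, 205 reads), 16.8% (11.4% to 23.3%, 167 reads) and 38.7% (31.8% to 45.9%, 194 reads). Ordered by group mean, levels ran from 16.8% with 500 young cells through 20.1% in young HSCs to 38.6% in fetal and 42.9% in 0-dose HSCs. Neighbours in that order, where one had an SD, differed by less than the larger SD of the pair, apart from 4 doses and 50 young cells. Sorting puts near means side by side, so this does not show that groups far apart in the order are alike.

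Other CpGs at the H19 end, outside any cluster, were intermediate to high, and those named here were chosen after their values were seen. At 149767092, read in all 25 libraries on 7 to 122 reads, the median was 61.1%, the lowest library 37.5% (10 young cells) and the highest 100% (4 doses). Young HSCs read 56.7% and 57.4%, old HSCs 64.4% and 67.9% and fetal HSCs 69.7% and 75.6%, so that the groups did not overlap; in no test was this CpG past an adjusted p of 0.05. Its neighbours at 149767047 and 149767291 had medians of 51.7% and 63.0% over 23 and 22 libraries. The 4 CpGs from 149761700 to 149761917 were higher, with medians from 64.0% to 91.8%. Between the H19 end and Igf2, the CpG at 149797431 read 3.95% and 3.12% in fetal HSCs, and 16.0% (500 old cells) to 40.6% (an old library) in the other 23 libraries. Fetal HSCs thus lay below every other library there, over 22 to 88 reads; young against fetal had an unadjusted p of 0.0273 and an adjusted p of 1 in the test of single CpGs described below.

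At Meg3, a cluster of 3 CpGs at chr12:110778801-110778855, 352 to 405 bases before the placed start, read near the middle of the scale, with a median of 50.9%. Fetal HSCs read 58.7% and 39.8% (49.2% ± 13.4), young HSCs 40.1% and 41.5% (40.8% ± 0.949) and old HSCs 56.3% and 36.2% (46.3% ± 14.2). The fetal and the old range each covered both young values. The 0-dose libraries read 56.7%, 40.4% and 62.2% (53.1% ± 11.3), the 2-dose libraries 49.8%, 37.3% and 44.0% (43.7% ± 6.27) and the 4-dose libraries 51.9% and 72.3% (62.1% ± 14.4). Both 4-dose libraries lay above all 2-dose libraries, and overlapped the 0-dose ones. With 10 young cells the level was 48.1%, 54.5% and 52.7% (51.8% ± 3.32), above both young libraries, and with 10 old cells 57.9% and 72.6% (65.3% ± 10.4), above both old libraries. The 500-cell old-donor libraries read 50.9%, 54.2% and 41.9% (49.0% ± 6.34), inside the old range. By pooled reads, 50 young cells gave 46.2% (35.0% to 57.8%), 500 young cells 45.6% (35.0% to 56.4%) and 50 old cells 53.4% (44.0% to 62.8%). Group means thus ran from 40.8% in young to 65.3% with 10 old cells. Neighbours in that order, where one had an SD, differed by less than the larger SD of the pair, which sorting itself favours. This does not show that groups far apart in the order are alike.

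**Figure D2:**
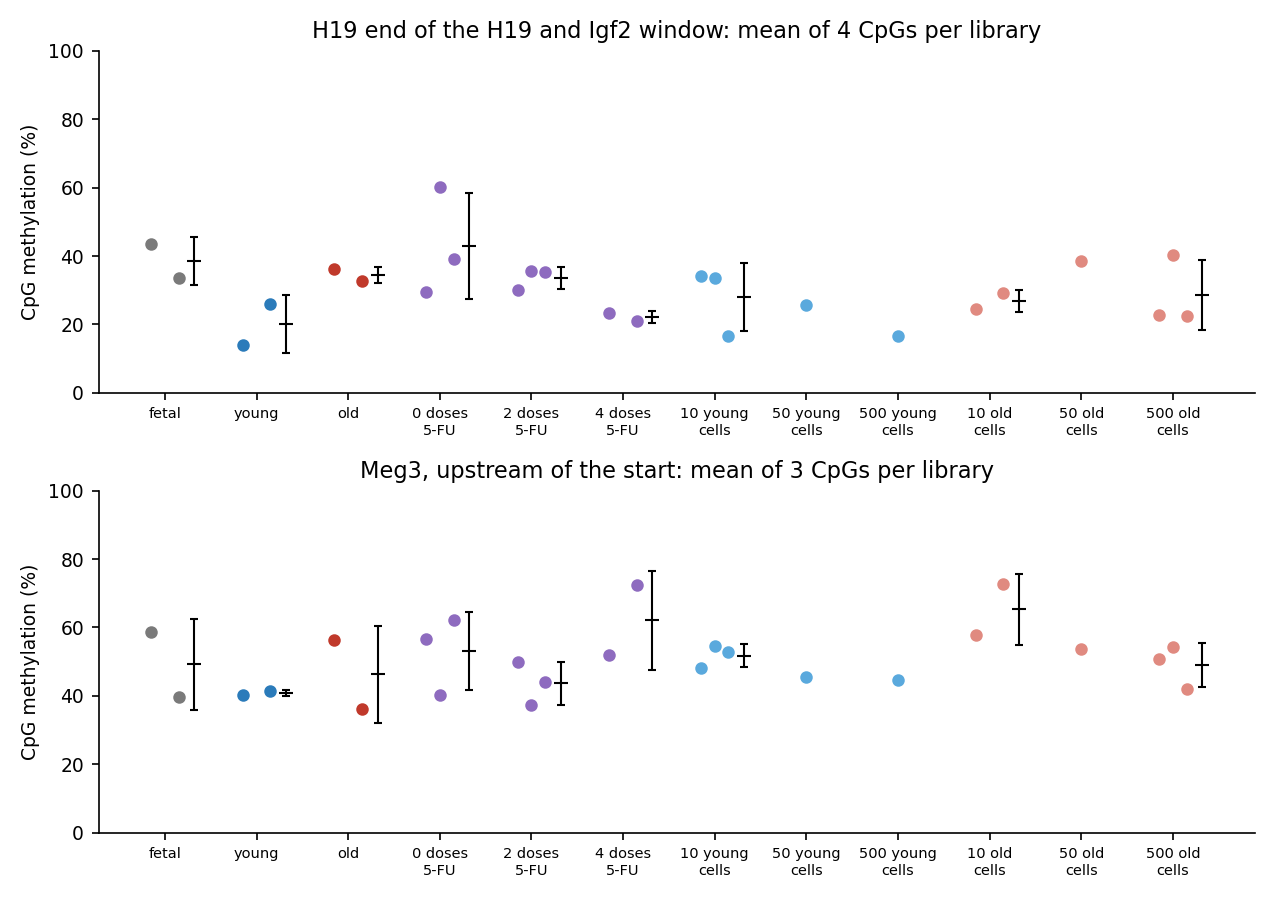
Mean CpG methylation (%) per library of the H19-end cluster (4 CpGs, upper) and the Meg3 cluster (3 CpGs, lower) in the 12 groups. Dots are libraries, and the bars beside groups of 2 or 3 show mean ± SD. The H19-end cluster spans 14.1% to 60.1% and the Meg3 cluster 36.2% to 72.6%, with wide overlap of groups.

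Around the Meg3 start, some CpGs read lower in some groups and varied more, and others were not as low. The CpG 79 bases after the start, at 110779285, varied on few reads. It read 72.7% in the covered fetal library (11 reads), but 6.25% with 50 young cells (16 reads) and 0% in the covered 4-dose library (7 reads). The covered libraries read 0% and 100% with 2 doses and 40% and 100% with 10 young cells, each on 5 or 6 reads. The CpG at 110780016, 810 bases after the start, had group means from 38.6% with 4 doses to 72.1% with 500 old cells. The CpG 74 bases after the start, at 110779280, was read in all 25 libraries on 6 to 66 reads and was chosen after its values were seen. It read 0% and 3.03% in young HSCs against 27.1% and 26.9% in fetal and 71.4% and 25.0% in old HSCs. It was at 46.2%, 60.0% and 33.3% with 0 doses and 36.4%, 56.2% and 42.9% with 2 doses, but 6.67% and 0% with 4 doses. The young and the 4-dose libraries thus did not overlap the fetal, old, 0-dose or 2-dose libraries. As a single CpG it had an unadjusted p of 0.0348 for old against young, of 0.00347 for 0 doses against young and of 0.0201 for 4 against 0 doses; each adjusted p was 1. After transplantation it read 45.5%, 33.3% and 0% from 10 young cells, 5.41% from 50 and 7.14% from 500. From old donors it read 6.25% and 25.0% with 10 cells, 22.7% with 50 and 25.0%, 28.0% and 20% with 500. Several transplanted libraries were thus as low as the young and 4-dose ones. The CpG 103 bases before the start, at 110779103, had 5 reads in 19 libraries. It read 46.7% and 41.7% in fetal HSCs, and 0% in both young libraries on 16 and 17 reads. Old HSCs read 27.3% and 0%, the 1 covered 0-dose library 57.1% on 7 reads, and 2-dose libraries 0% and 18.2%. Of the 10 transplanted libraries covered, 8 read 0%, 50 young cells 33.3% and 1 library of 500 old cells 23.1%.

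CpGs farther from the Meg3 start, on both sides of it, were mostly methylated. Upstream, at 110764888 to 110764946, the medians of 5 CpGs lay between 91.8% and 100%, while the CpGs at 110763922 and 110764001, within 1 kb of them, had medians of 3.30% and 2.50%. Downstream of the start, the 3 CpGs from 110782981 to 110783011 had medians of 87.1% to 100%. Exceptions farther downstream had few reads. At 110784400, on 5 to 22 reads, group means were 5% in young and 16.8% in fetal HSCs, but 68.6% with 0 and 66.5% with 2 doses. At 110786496 they ran from 38.0% with 500 old cells to 100% with 50 young cells, the latter on 5 reads. None of the CpGs read in 13 libraries lay between 110764946 and 110778484, and the intergenic control region itself could not be placed on mm9.

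At Rasgrf1 the covered CpGs were low. The CpGs at 89769450 and 89769529, read in all 25 libraries, had medians of 3.12% and 4.26% and highest values of 25.0% and 24.3%, both in the same 0-dose library. The exception was 89773152, with a median of 40% over 15 libraries on at most 26 reads. There fetal HSCs read 83.3% and 63.6%, old HSCs 80% and 50%, and the transplanted libraries 0% to 78.3%. No young or 5-FU library had 5 reads at it. Farther along, 89780620 and 89780724 had medians of 5.80% and 7.21%. At 89780724 fetal HSCs read 35.2% and 40.8%, old HSCs 25.3% and 27.1%, young HSCs 6.52% and 12.1%, and the libraries of all transplanted groups 0% to 15.5%. The 0-dose libraries read 4.55% to 9.21% there, the 2-dose libraries 5.13% to 16.9% and the 1 covered 4-dose library 0%.

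To compare groups, CpGs with 5 reads in every library of a fit were summed in tiles of 1000 bp with at least 3 such CpGs, and tiles were tested with a quasi-binomial F test with Benjamini-Hochberg adjustment over all autosomal tiles. A tile counted as changed where it passed an adjusted p of 0.05 and differed by 10 points or more. It holds only CpGs read in all libraries of its fit, so the level of a library can differ between fits. Fetal, young and old HSCs were fitted together (100896 tiles, 14 of them members: 10 at H19 and Igf2, 3 at Meg3 and 1 at Rasgrf1). The labels do not say whether replicates are separate animals, so the spread between libraries may be technical. The p-values rest on that spread after it was drawn towards the spread of all tiles. In this fit that meant 3 residual against 13.8 prior degrees of freedom, so other tiles weighed more than the tile's own libraries.

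Between fetal and young HSCs, 1 of 14 member tiles changed, where 5.68% of all tiles did (1.90% higher, 3.78% lower). It was the Rasgrf1 tile from 89780001, of 3 CpGs, which read 29.3% and 33.0% in fetal and 8.47% and 10.2% in young HSCs, so that the groups lay far apart. It fell by 21.4 points (31.1% ± 2.59 against 9.36% ± 1.26, n = 2 and 2, 91 to 366 reads), with an adjusted p of 0.00290 by the quasi-binomial test. Without young replicate 1 the difference was -20.5 points and the adjusted p 0.0811; without each of the other 3 libraries it remained changed. In old HSCs the same tile read 21.2% and 22.4%, between the other groups; old against young differed by 12.4 points with an adjusted p of 0.0689. The H19-end tile from 149764001 went from 42.5% and 34.9% to 15.6% and 29.4%, a difference of -16.8 points that did not pass (adjusted p 0.0716). The Meg3 cluster's tile differed by -9.28 points (adjusted p 0.543). The median difference of the 14 tiles was 1.18 points, against 0.196 over all tiles.

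Between young and old HSCs, 2 of 14 member tiles changed, both higher in old, where 3.37% of all tiles changed and 3.17% were higher. The H19-end tile from 149764001, with 5 CpGs, read 43.5% and 43.7% in old against 15.6% and 29.4% in young HSCs. It rose by 20.9 points (43.6% ± 0.0866 against 22.5% ± 9.76, n = 2 and 2, 124 to 272 reads), with an adjusted p of 0.0403 by the quasi-binomial test. Its CpG farthest from the others, at 149764673, read 100% and 87.5% in old and 100% and 91.7% in young HSCs, on 15 to 32 reads in old and 6 to 12 in young, and so raised the old level more. At 10 reads per CpG, which leaves it out, the difference was 13.9 points (adjusted p 0.215). The tile from 149851001, 6.38 to 6.75 kb upstream of the Igf2 start, read 52.9% and 46.2% in old against 25.3% and 28.3% in young HSCs. It rose by 22.0 points (49.6% ± 4.77 against 26.8% ± 2.14, 79 to 187 reads; adjusted p 0.0370). In both tiles every old library was above every young one. At the tile from 149843001, 1.27 to 1.46 kb downstream of the Igf2 start, old HSCs read 64.9% and 62.5% and young HSCs 47.1% and 41.7% (19.8 points, adjusted p 0.0757). The Meg3 cluster's tile differed by 4.93 points (adjusted p 0.816), and the median over the 14 tiles was 4.13 points, against 1.499 over all tiles.

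Leaving out 1 library leaves 1 in that group, assumed to vary like the other groups, which lowers power. Without young replicate 1, young replicate 2, old replicate 1 or old replicate 2 neither call passed. At the H19-end tile the differences were then 14.2, 28.0, 20.97 and 20.8 points with adjusted p-values of 0.571, 0.0505, 0.459 and 0.357, and at the tile upstream of Igf2 19.6, 23.9, 19 and 25.7 points with 0.351, 0.183, 0.463 and 0.191. Old libraries also read higher at 108 CpG-rich tiles outside the windows (10 or more CpGs, 20% to 80% in every library, a set chosen after seeing the data). The mean there was 43.5% and 44.0% in young and 51.2% and 52.5% in old HSCs. With that library offset removed, the H19-end tile differed by 13.4 points (adjusted p 0.340) and the tile upstream of Igf2 by 14.1 points (adjusted p 0.355). With the planned offset, which rests on 4 tiles of 30 or more CpGs (37.6% in young and 51.9% in old HSCs), they differed by 7.67 and 8.03 points (0.543 and 0.560).

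**Figure D3:**
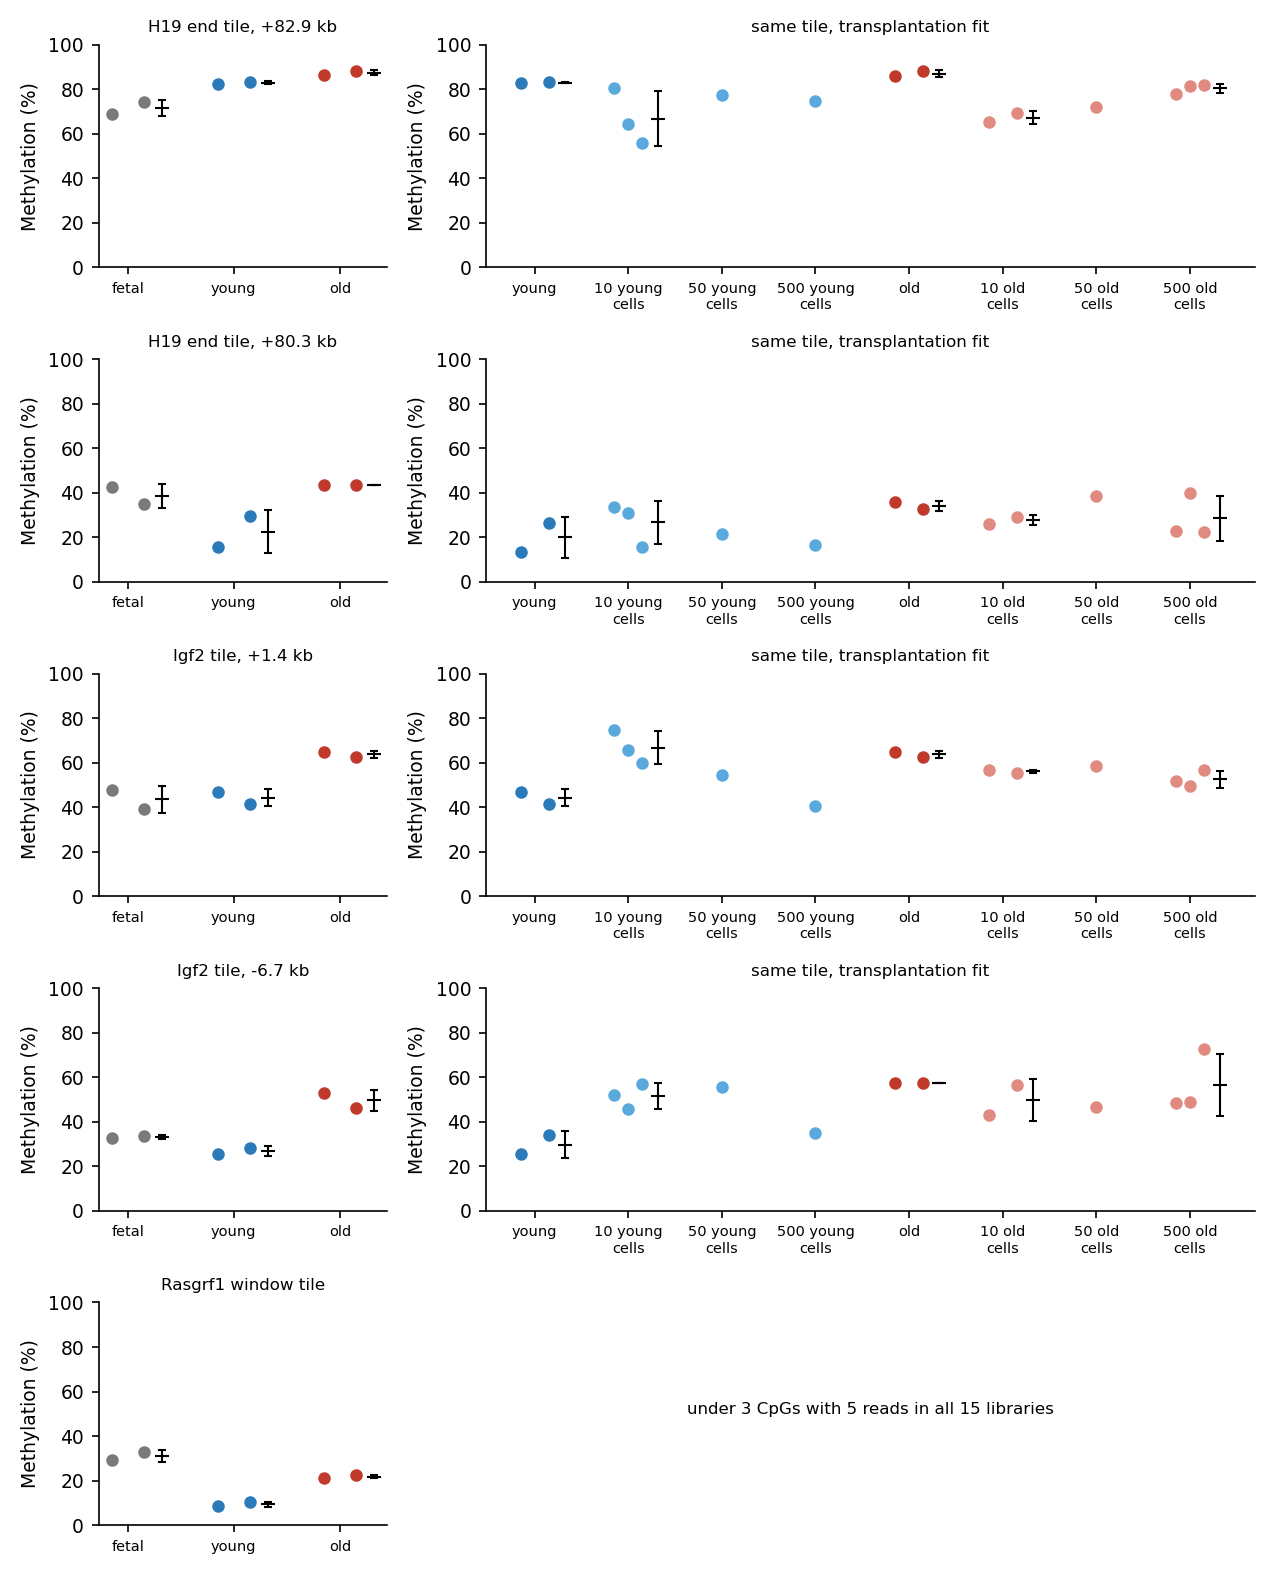
Methylation (%) per library of the 5 member tiles changed in any comparison, in the fit of HSCs not transplanted and not given 5-FU (left) and in the transplantation fit (right). Tiles of the chromosome 7 window are named by the distance in kb of their CpGs from the placed Igf2 start. Dots are libraries and bars are mean ± SD of groups of 2 or 3. The Rasgrf1 tile reads 8.47% and 10.2% in young against 29.3% and 33.0% in fetal HSCs, and the tile from 149761001 reads 65.2% and 69.4% with 10 old cells against 85.9% and 88.2% in old HSCs.

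The 5-FU groups asked how methylation differs after forced division. Their fit held no tile at Rasgrf1, nor those from 149761001 and 149843001, which had too few CpGs covered in all its libraries. With 9 member tiles of 57204 tested, none changed between 0-dose and young HSCs (0.0140% of all tiles, 0.0122% higher), between 2 and 0 doses (0.00524%) or between 4 and 0 doses (0.00175%), where the test called almost nothing anywhere. At an unadjusted p under 0.05, 2, 0 and 2 of the 9 member tiles passed, against 5.37%, 4.41% and 7.85% of all tiles, and limma called 0 members in each comparison. The tile upstream of Igf2 from 149851001 read 60.3%, 36.9% and 57.0% with 0 doses, 49.4%, 38.9% and 82.7% with 2 doses and 64.0% and 41.0% with 4 doses. All 8 libraries thus lay above the young libraries, at 25.3% and 28.3%, and the dose groups overlapped. The 0-dose group exceeded the young group by 24.4 points (51.4% ± 12.7 against 26.8% ± 2.14; unadjusted p 0.0543, adjusted p 0.951). Upstream of Meg3, the tile from 110764001 read 72.7%, 82.1% and 88.9% with 0 doses, 75.8%, 64.2% and 51.8% with 2 doses and 34.8% and 65.0% with 4 doses. Both 4-dose libraries were below every 0-dose library, by 32.1 points in the fit on as few as 39 reads (unadjusted p 0.0121, adjusted p 0.535). No CpG of the tile differed like this. Those at 110764888 and 110764904 read 100% in every 0-dose and 4-dose library. That at 110764001 had a mean of 2.08% with 0 doses (7 to 16 reads) and 0% with 4 doses (14 to 30 reads). The tile's difference thus reflects how its reads were spread over its CpGs, and not a change at any of them. At the H19-end tile 4 against 0 doses differed by -11.0 points (adjusted p 0.844), and at the Meg3 cluster's tile by 8.16 points (adjusted p 0.852).

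Transplantation was tested on 90382 tiles, 14 of them members, with none at Rasgrf1. Against young HSCs, 3 of the 14 changed after transplantation of 10 young cells, where 18.0% of all tiles changed, 17.0% lower and 1.09% higher. The tile from 149761001 at the H19 end, with 4 CpGs, read 80.4%, 64.2% and 55.8% after transplantation against 82.8% and 83.3% in young HSCs. It fell by 16.3 points (66.8% ± 12.5 against 83.0% ± 0.395, n = 3 and 2; adjusted p 0.0204 by the quasi-binomial test). The tile from 149843001 near Igf2 read 74.5%, 65.9% and 60.0% against 47.1% and 41.7%, on 25 to 156 reads. It rose by 23.9 points (66.8% ± 7.27 against 44.4% ± 3.81; adjusted p 0.0275). The tile from 149851001 rose by 21.5 points, from 25.3% and 33.8% to 51.9%, 45.7% and 56.9% (adjusted p 0.0411). In all 3 tiles the 10-cell and the young libraries did not overlap. At the tile from 149851001, old HSCs read 57.4% and 57.2%, so this level was not particular to transplanted HSCs. The 0-dose libraries read 60.3%, 36.9% and 57.0% there in their own fit. The library of 500 young cells read 34.8% there and 40.6% at the tile from 149843001, near the young libraries. That of 50 young cells read 55.4% and 54.5%. Whether time or transplantation made the differences was not tested. The median difference of the 14 tiles was 0.661 points, against -4.47 over all tiles. Member tiles in the dense block beside the Igf2 start, such as that from 149845001 at 2.03% and 1.75% in young HSCs, had little room to fall.

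Without young replicate 1, which leaves 1 young library, the differences of the 3 tiles in that order were -16.6, 26.2 and 18.2 points, with adjusted p-values of 0.0959, 0.0741 and 0.165. Without young replicate 2 they were -16.01, 20.8 and 26.7 points, with 0.186, 0.223 and 0.169. Without replicate 1 of the 10-cell group, the first tile fell by 23.0 points (adjusted p 0.00747) and the others differed by 19.7 and 21.6 points and did not pass (0.0985 and 0.0688). Without its replicate 3, only the tile from 149843001 remained changed (26.4 points, adjusted p 0.0303), the first tile differing by -10.8 points (0.101) and the third by 18.4 points (0.122). Without its replicate 2 all 3 remained changed. At the 108 CpG-rich tiles outside the windows, the 10-cell libraries read 46.6% to 50.8%, against 43.5% and 44.0% in young HSCs. With that offset removed the first tile fell by 19.03 points (adjusted p 0.00549), while the other differences were 18.1 and 17.1 points (0.0618 and 0.111). With the planned offset of 4 tiles, which read 37.6% in young and 56.2% with 10 young cells, the first tile fell by 26.4 points (0.000182) and the others differed by 4.78 and 3.57 points (0.573 and 0.715).

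With old donors, 1 of 14 member tiles changed after transplantation of 10 cells against old HSCs, where 23.2% of all tiles changed, 22.7% lower and 0.555% higher. It was again the H19-end tile from 149761001, which read 65.2% and 69.4% against 85.9% and 88.2%, with no overlap. It fell by 20.2 points (67.3% ± 2.96 against 87.1% ± 1.62, n = 2 and 2, 98 to 611 reads; adjusted p 0.0106). Without old replicate 1, old replicate 2 or replicate 1 of the 10-cell group the difference was -21.3, -19 or -17.7 points with adjusted p-values of 0.0851, 0.0891 and 0.0975; without its replicate 2, 2 member tiles were changed. At the 108 CpG-rich tiles outside the windows, old libraries read 51.2% and 52.5% and the 10-cell ones 49.4% and 53.6%. With that offset removed the difference was -20.7 points (adjusted p 0.0175). The Meg3 cluster's tile differed by 18.0 points (65.1% ± 10.5 against 46.4% ± 12.9; adjusted p 0.0715), in the other direction from the bulk of tiles, whose median difference was -6.48 points. With 500 old cells, 0 of 14 changed, where 8.04% of all tiles did (0.371% higher, 7.67% lower); 1 member had an unadjusted p under 0.05, against 30.6% of all tiles, and limma also called 0 members. The tile from 149761001 then read 78.1%, 81.6% and 81.8%, below both old libraries and above both 10-cell ones, a difference of -6.67 points from old (adjusted p 0.219). Without 500-cell replicate 3, 1 member tile was changed.

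Whether 10 transplanted cells differed from their source by another amount in young than in old donors was tested as an interaction. No tile of all 90382 passed; among members, 2 of 14 had an unadjusted p under 0.05, against 5.18% of all tiles. These were the tiles from 149843001 and 149851001 near Igf2, whose difference was 31.3 and 30.2 points larger with young donors (unadjusted p 0.00825 and 0.00977, adjusted p 0.725 and 0.752). For the tile from 149761001, which was lower in both, it was 3.91 points (adjusted p 0.998).

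**Figure D4:**
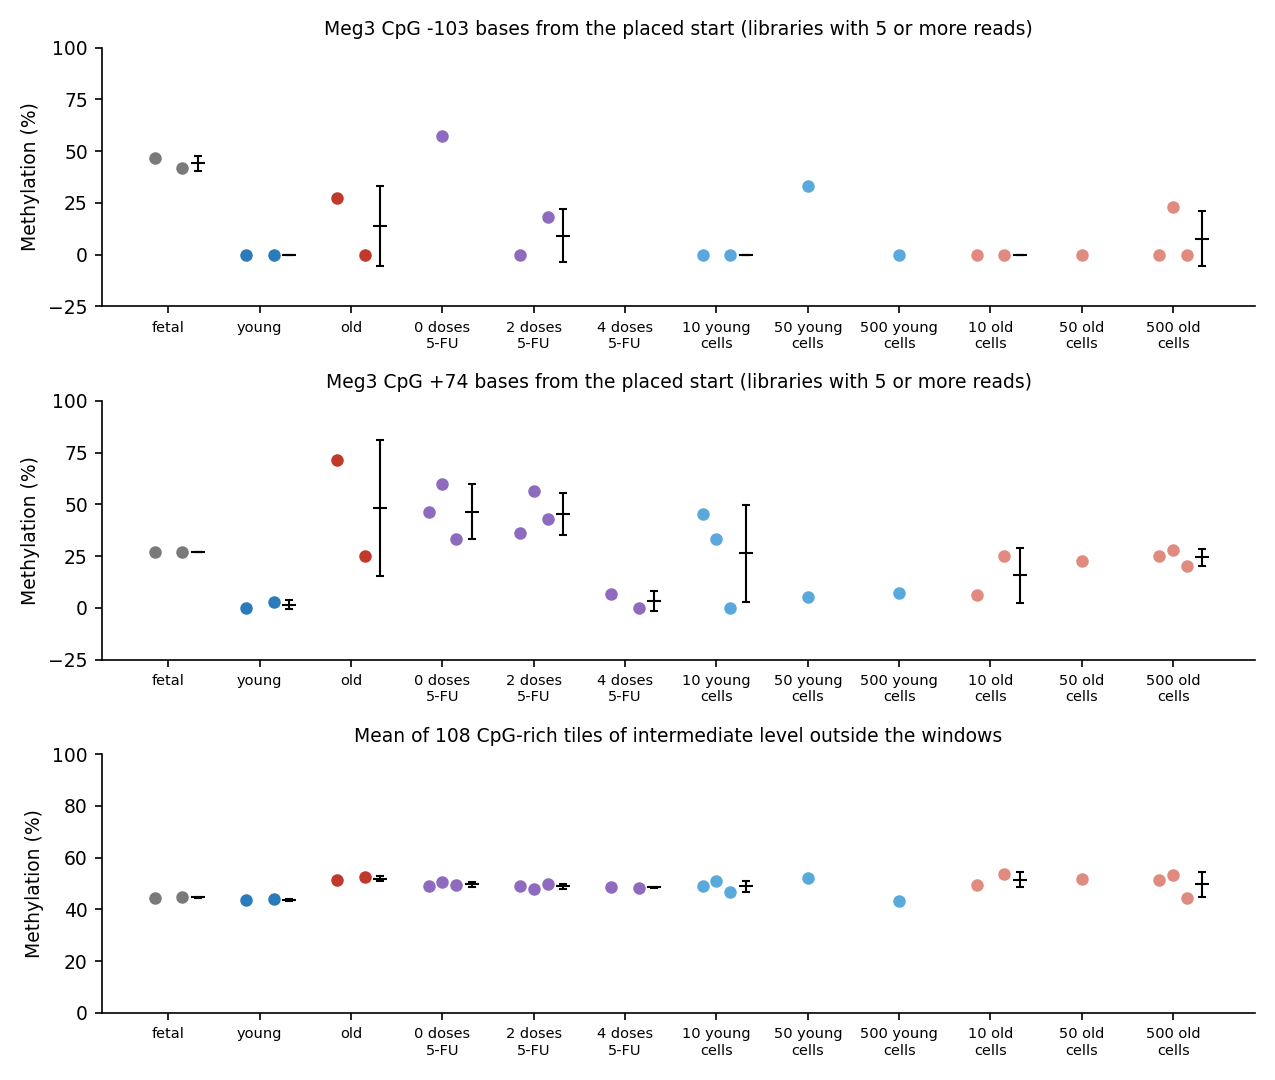
Methylation (%) per library at the Meg3 CpGs 103 bases before and 74 bases after the placed start (upper and middle, libraries with at least 5 reads) and the mean of 108 CpG-rich tiles outside the windows (lower). Dots are libraries and bars are mean ± SD of groups of 2 or 3. The CpG after the start is at 0% and 3.03% in young and 6.67% and 0% in 4-dose libraries, while the lower panel stays between 43.1% and 53.6%.

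Tested as single CpGs instead, 0 member CpGs passed in any of the 8 comparisons, of 87 to 158 tested, and 0 CpGs passed anywhere in the genome (0.00% in each comparison). At an unadjusted p under 0.05, 6 member CpGs differed between young and fetal HSCs, 4 between old and young, 1, 2 and 3 in the 5-FU comparisons, 10 with 10 young cells, 10 with 10 old cells and 7 with 500 old cells. The members tested numbered 157 in the first comparisons, 87 with 5-FU and 158 with transplantation. Over all CpGs the shares were, in that order, 2.75%, 1.93%, 2.03%, 1.70%, 2.4%, 10.3%, 10.5% and 7.16%. The CpGs of the Rasgrf1 tile were among the first, at 89780620 (-18.5 points, unadjusted p 0.0431) and 89780724 (-28.2 points, unadjusted p 0.0155). Both were also among those that differed between 500 old cells and old HSCs, by -16.7 and -21.9 points (unadjusted p 0.00841 and 0.00389, adjusted p 0.676).

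The group pattern of each intermediate cluster was compared with 7793 tiles outside the windows with a median between 20% and 80%, over the 12 group means. The most alike to the H19-end cluster lay on chromosome 8 from 26612001 (Pearson r 0.911) and from 47337001 (r 0.910). For the Meg3 cluster they lay on chromosome 12 from 14501001 (r 0.797) and on chromosome 11 from 101026001 (r 0.763). These values describe likeness over 12 points that share libraries and their depth, picked as the highest of 7793.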

How the data were processed

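RRBS data of 25 HSC libraries were used. Each deposited file lists CpGs with position, strand, methylated reads over all reads, and a score. The deposited score equalled 1000 times the methylated share rounded down (0 mismatches) and was not tested. The methylated and total read counts were used as the authors deposited them. Per the submitters' processing notes, positions are those of mm9. Which aligner and caller made the files is not given in the sources used here. Reads carry no molecular identifiers that the labels name, so copies of one molecule may be counted more than once, which makes binomial intervals too narrow.

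Levels are percent of reads methylated per CpG, averaged over a cluster's CpGs. The tile test fitted a mean per group to reads, in fits of 6 (fetal, young, old), 10 (young and 5-FU) and 15 (young, old and transplanted) libraries. Reads of a library were down-weighted by Williams' method with 1 correlation per fit (0.00585, 0.0170 and 0.00818), and dispersions were moderated with limma's squeezeVar with a trend on depth and held at 1 or more, on 3, 6 and 7 residual degrees of freedom. The script was tested on simulated reads. The correlation was first set from the mean dispersion of tiles at 5% to 95%. After its calls were seen, it was changed to the median at 10% to 90%, and the first form was kept as an alternative. The members and lists were chosen with earlier results of these data known. Clusters, all-library values and the most alike tiles followed a written rule; single CpGs named outside clusters were chosen after their values were seen. No pairing of libraries by replicate number was seen, in a check that is weak for groups of 2 libraries. Analyses used Python 3.11.15, numpy 2.4.6, scipy 1.17.1, pandas 2.3.3, matplotlib 3.10.9, R 4.3.3 and its package limma 3.58.1.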

Additional observations from a re-analysis of the deposited data

How the results depend on the processing

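Changed member tiles numbered 1 for young against fetal, 2 for old against young, 3 for 10 young cells, 1 for 10 old cells and 0 in the other comparisons. At 10 reads per CpG they were 2, 0 and 1 for the first 3. With tiles of 300 bp all 4 were 0. The share of all tiles changed is not given beside most of these counts, so a 0 may come from a setting that called little anywhere. With limma on logit levels (pseudocount of 1 read) old against young was 0 and 10 young cells 1. With a replicate block they were 0 and 1 too. With the planned library offset, from tiles with 30 or more CpGs, which held only 4 tiles, young against fetal was 2 and old against young 0. With it 10 young cells still had 3, but all 3 lower, where 2 of the reported 3 were higher. The differences of those tiles went from 23.9 and 21.5 to 4.78 and 3.57 points, and that of the third from -16.3 to -26.4. The offset of tiles with 10 or more CpGs, added after seeing the data, gave 0 for old against young and 1 for 10 young cells. As single CpGs, also added, all 4 were 0. The first form of the correlation, added too, gave the reported counts for the members, but 5330 against 5732 changed tiles in all for young against fetal. Leaving out 1 library gave 0 to 1 for young against fetal, 0 to 0 for old against young, 0 to 3 for 10 young cells, 0 to 2 for 10 old cells and 0 to 1 for 500 old cells. The 5-FU comparisons were at 0 changed member tiles in every setting run, but their main fit tested no tile at Rasgrf1 and not those from 149761001 and 149843001.

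The mean of the H19-end cluster over libraries was 30.6% (31.1% from pooled reads, 29.4% to 31.3% leaving out 1 library), and that of the Meg3 cluster 50.6% (50.4%, and 49.6% to 51.2%). No changed tile reversed. Deviations of same-numbered libraries from their group means correlated between -0.0818 and 0.120, so no pairing by number was seen. In a group of 2 libraries one deviation mirrors the other, so this check is weak and cannot exclude a pairing. The compared groups held 2 or 3 libraries, and a tile as few as 23 reads. At the tile from 149851001, on 58 to 187 reads, a difference of 24.4 points between 0-dose and young HSCs did not pass.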
